A study of Homo sapiens with 11 samples.

Results

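Long non-coding RNA (lncRNA) exon windows are short genomic stretches, with a median length of 93 bases in the R62W list, 93 in the R101H list and 94 in the WT list, that the authors annotated first of all as exon of a non-coding transcript and listed as enriched with the ribosomal protein RPS19. Every listed window with that leading annotation was taken except those of the genes NORAD and MIR34AHG. Beyond the authors' enrichment limit for listing a window, the rule itself uses no measured value. The set held 2230 of 86567 listed windows in R62W, 2200 of 93331 in R101H and 524 of 15402 in WT. Counted once each, these were 2917 different windows in 607 genes, of 122708 different windows in all.

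The windows came from enhanced crosslinking and immunoprecipitation (eCLIP), in which RNA crosslinked to a protein is fragmented, precipitated with that protein and sequenced. The protein was RPS19, a component of the small ribosomal subunit, expressed with a V5 tag from plasmids introduced into HEK293T, an established line derived from human embryonic kidney that carries the large T antigen of SV40. Groups were the Diamond-Blackfan anemia substitution R62W (3 immunoprecipitates), the substitution R101H (2), wild-type RPS19 (WT, 3), and size-matched input from cells without a plasmid (3). Immunoprecipitates (IP) and inputs thus differed in the plasmid as well as in the precipitation, which cannot be told apart, and no label reports removal of the cells' own RPS19. Whether replicates came from separate cultures is not stated by the labels, so p-values measure the spread between these samples alone, and that spread may be technical.

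A window's value is the authors' log2 odds ratio of IP over input, averaged over the replicates in which the window passed. All listed windows had passed in at least 2 replicates with a highest q under 0.2, and a window missing from a list has no value rather than a value of 0. The median window rested on a pooled IP count of 52 in R62W, 49 in R101H and 82.5 in WT and on 13, 10 and 16 pooled input counts. Pooled counts covered only the replicates that passed, so count ratios between lists are given below only with that limit. Library totals were not used here.

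lncRNAs are transcribed and often spliced like mRNAs but carry no long open reading frame. NEAT1 scaffolds nuclear paraspeckles, MALAT1 gathers at nuclear speckles, XIST coats the inactive X chromosome, and the small nucleolar RNA (snoRNA) host genes, among them GAS5 and the SNHG genes, release snoRNAs from their introns while their spliced exons leave the nucleus and can meet ribosomes. Several snoRNA host transcripts begin with a run of pyrimidines, the terminal oligopyrimidine start that they share with ribosomal protein mRNAs.

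Listed windows covered the annotated first base of several of these transcripts. The 4 starts below show how differently such transcripts begin, and the capitals mark the C and T bases that open the transcript without a break. Sequences are the first 30 bases in RefSeq (GRCh38.p14), at chr16:2155329-2155358 on the minus strand for SNHG19, chr7:27185408-27185437 on the plus strand for HOXA11-AS, chr5:27472292-27472321 on the plus strand for PURPL and chrX:73852685-73852714 on the minus strand for XIST.
SNHG19: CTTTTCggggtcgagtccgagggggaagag
HOXA11-AS: gccacctcaggggaagcaacagatcgtcac
PURPL: CTgggaatcaatgtgtgaggtggtgctatg
XIST: atatttcttactctctcggggctggaagct
SNHG19, a snoRNA host, opened with 6 pyrimidines, a run of that length or longer being found at 3.76% of 35116 RefSeq starts read on the transcript strand. Its first window was the only one of the 4 in all 3 lists, at 1.71, 1.98 and 2.36 in the R62W replicates and 1.85 and 2.11 in R101H, against 1.10 and 1.59 in the 2 WT replicates that passed. All substitution values lay above both WT values. Over all windows shared with WT, R62W lay wholly above WT in 24.1% and R101H in 48.4%. The start windows of HOXA11-AS, an antisense transcript of the HOXA cluster, had means of 2.14 in R62W and 2.44 in R101H and were not listed in WT. The start of PURPL, a p53-induced lncRNA, had 2.01 and 1.95 and was likewise not listed in WT, while that of XIST was listed in R62W alone, at 0.53. Of the 607 genes, 324 had a start in the RefSeq table.

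Most of the set was not made of lncRNA genes. Windows in genes of the deposited type lncRNA numbered 808 (36.2% of the set, exact 95% interval 34.2 to 38.3) in R62W, 786 (35.7%, 33.7 to 37.8) in R101H and 205 (39.1%, 34.9 to 43.4) in WT. Protein-coding genes held 681, 682 and 209 windows, and pseudogenes held 738, 726 and 110. In protein-coding genes, 661 of 681 windows in R62W, 669 of 682 in R101H and 200 of 209 in WT carried a processed or retained-intron transcript type, that is, a non-coding isoform, and 405, 387 and 95 also lay in a coding isoform. In pseudogenes every window carried such a type in all 3 lists. The name lncRNA exon therefore describes the annotation of these windows and not the kind of gene for most of them. Intervals cover counting error only and treat windows as independent, although many lie in the same gene, so they may be too narrow.

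With the substitutions the number of lncRNA exon windows was multiplied less than that of all listed windows. It was 4.26 times the WT number in R62W and 4.20 times in R101H, where the whole lists were 5.62 and 6.06 times as long as in WT. Its share of the list was 2.58% (2.47 to 2.68) in R62W and 2.36% (2.26 to 2.46) in R101H, against 3.40% (3.12 to 3.70) in WT. With 1 list per group these shares carry no test between groups, and their order depended on the windows counted. Where each list was cut to the length of the WT list by its lowest q-values, the share was 3.60% in R62W and 3.06% in R101H, against 3.40% in WT. With 1 window per gene it was 3.70% and 3.49%, against 3.25% in WT.

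The growth in numbers differed between kinds of gene. NEAT1 had 63 windows in R62W and 55 in R101H against 66 in WT, and MALAT1 had 31 and 26 against 42. Windows of NPIPA genes and of PKD1 and its pseudogenes, near-identical copies on chromosome 16, numbered 201 and 200 against 141, or 1.43 and 1.42 times the WT number. The other lncRNA genes had 714 and 705 windows against 97, which is 7.36 and 7.27 times. Here and below they include NPIPP1:PKD1P6-NPIPP1, whose windows are also counted among the copies. Pseudogenes without the copies had 677 and 667 against 82, or 8.26 and 8.13 times, and protein-coding genes without the copies had 549 and 549 against 100, or 5.49 times in both. The 3 genes with most windows made up 8.34% of the set in R62W and 8.09% in R101H, against 31.3% in WT.

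**Figure D1:**
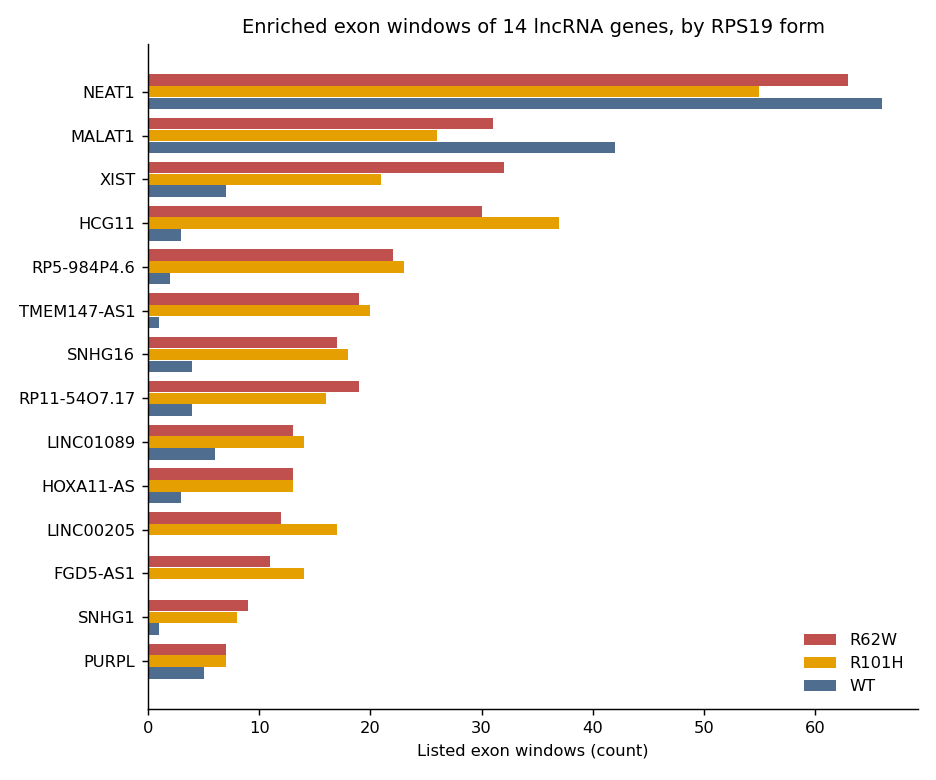
Number of listed exon windows (horizontal axis, count) for 14 lncRNA genes, with 1 bar each for R62W, R101H and WT. NEAT1 and MALAT1 had fewer windows with either substitution than with WT, whereas XIST had 32 and 21 against 7 and HCG11 had 30 and 37 against 3; LINC00205 and FGD5-AS1 had none in WT.

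XIST had 32 windows in R62W and 21 in R101H against 7 in WT. HCG11 had 30 and 37 against 3, TMEM147-AS1, an antisense transcript, had 19 and 20 against 1, and RP5-984P4.6 had 22 and 23 against 2. Among lncRNA genes without a WT window, LINC00205 had 12 and 17 and FGD5-AS1 had 11 and 14. The pseudogene GTF2IP4 had 20 and 20, NBPF25P had 11 and 17, and the protein-coding gene MYSM1, which encodes a histone H2A deubiquitinase, had 16 and 16, again with none in WT. Gene counts were taken over the 607 genes alone, not over all listed genes, so no share over all genes stands beside them. With whole lists 5.62 times (R62W) and 6.06 times (R101H) as long as in WT, these gene counts are description only. Of the 607 genes, 134 were in all 3 lists, 242 were in both substitution lists but not in WT, and 4 were in WT alone. Those 4, ARF1, CHFR, ID3 and ZBTB7A:CTD-2622I13.3, are protein-coding or joint loci with 1 window each. Together with NEAT1, MALAT1 and CTB-25B13.5, which had 3 windows in R62W, 0 in R101H and 5 in WT, they were the only 7 genes with fewer windows in both substitution lists than in WT.

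Among genes grouped by role, snoRNA hosts had the most windows after the nuclear and chromatin lncRNAs in both substitution lists. Genes of a list of 30 snoRNA hosts had 77 windows in R62W and 73 in R101H, in 20 and 17 genes, against 13 windows in 7 genes in WT. These were 5.92 and 5.62 times the WT number, close to the 5.62 and 6.06 times of all listed windows. SNHG16 had 17 and 18 against 4, SNHG1 had 9 and 8 against 1, DANCR had 4 and 6 against 1, and GAS5 had 4 and 4 and SNHG15 had 7 and 5 against none. Median values of the snoRNA hosts were 1.60 in R62W and 1.57 in R101H, against 1.76 over the fewer WT windows. Of 21 miRNA hosts, 5 had 15 windows in R62W and 5 had 15 in R101H, with none in WT, and FTX, a regulator of XIST, held 8 and 5 of them. A further list of 18 names was headed cytoplasmic or translation-linked, and some of its genes stand there under 2 names. That heading was assigned, not measured, and may not hold for every gene in it, CHASERR among them. From it OIP5-AS1 had 4 and 4 windows against 1, CHASERR had 3 and 1 against none, and no other gene was present. Nuclear and chromatin lncRNAs had 147 windows in R62W and 126 in R101H, in 8 and 9 of 20 genes, against 118 windows in 4 genes in WT. HOTAIR, which binds chromatin modifiers, had 4 and 5, TUG1 had 1 and 2, and FIRRE, an X-linked nuclear lncRNA, had 2 and 2, all with none in WT. Of a list of 10 names of p53-induced lncRNAs only NEAT1 and PURPL had windows, and PURPL had 7 and 7 against 5.

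Windows listed in WT were mostly listed with the substitutions too. R62W held 479 of the 524 WT windows at identical coordinates (91.4%, 88.7 to 93.7), against 79.6% of all WT windows, and R101H held 448 (85.5%, 82.2 to 88.4), against 72.0%. As a share of the longer lists these were 21.5% of the R62W set and 20.4% of the R101H set. R101H shared 1549 windows with R62W, which is 70.4% of the R101H set and 69.5% of the R62W set. Of the 2917 different windows, all 3 lists held 439, both substitutions but not WT held 1110, and WT alone held 36. Of all 122708 different windows, 10627 were in all 3 lists. The other counts were not taken over all windows, so they are description and not a result about this set. Of those 36, 12 lay in MALAT1 and 3 in NEAT1. Among WT windows of lncRNA genes, R62W held 180 of 205 (87.8%, 82.5 to 92.0) and R101H held 154 (75.1%, 68.6 to 80.9), while for pseudogenes R62W held 108 of 110 and R101H held 106.

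NEAT1, 22743 bases long in RefSeq (chromosome 11, plus strand), had windows scattered from its start to a last window centred at 22.6 kb in R62W and 21.0 kb in R101H, against 22.6 kb in WT. With the transcript divided into 4 equal stretches, stretch 1, which includes the sequence common to the short and long isoforms, held 3 windows in each list, whereas stretch 4 held 29 in R62W and 22 in R101H, against 32 in WT. The window at its start (chr11:65422798-65422896) had a mean of 2.18 in R62W (1.73 to 2.50) and 2.27 in R101H (2.08 to 2.45), against 1.66 in WT (1.12 to 1.97). Near its far end, a window at chr11:65442049-65442148 had 0.67, 0.68 and 0.79 in R62W and 0.56 and 0.61 in R101H, against 0.92, 1.33 and 1.94 in WT. All 5 substitution values of that window lay below the WT values, where R62W did so in 4.24% and R101H in 3.84% of all shared windows. Its pooled IP counts were 233 and 154 against 412, and its input counts were 187 and 125 against 187. Among windows that passed in every replicate, the limma adjusted p of this R62W minus WT difference of -0.69 (SE 0.32) was 0.22, with Benjamini-Hochberg adjustment.

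MALAT1, 8779 bases long in RefSeq and near NEAT1 on chromosome 11, had low values on deep counts. Its medians were 0.77 in R62W and 0.90 in R101H, against 1.11 in WT, with summed IP counts of 38561, 29810 and 60943. Medians and sums are over 31, 26 and 42 windows and so over unlike windows. In windows shared with WT the median difference was -0.25 for R62W, over 30 windows, and -0.10 for R101H, over 25. Stretch 1 of 4 held 1 window in R62W and 0 in R101H, against 4 in WT, and stretch 3 held 12 and 10 against 17. One of the WT windows in stretch 1, at chr11:65499154-65499253, had 1.47 (1.39 to 1.54) on 1042 IP counts. In stretch 4 a window at chr11:65504527-65504625 had means of 1.78 in R62W and 2.14 in R101H, against 1.76 in WT, so the values were not lower at every position of MALAT1.

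**Figure D2:**
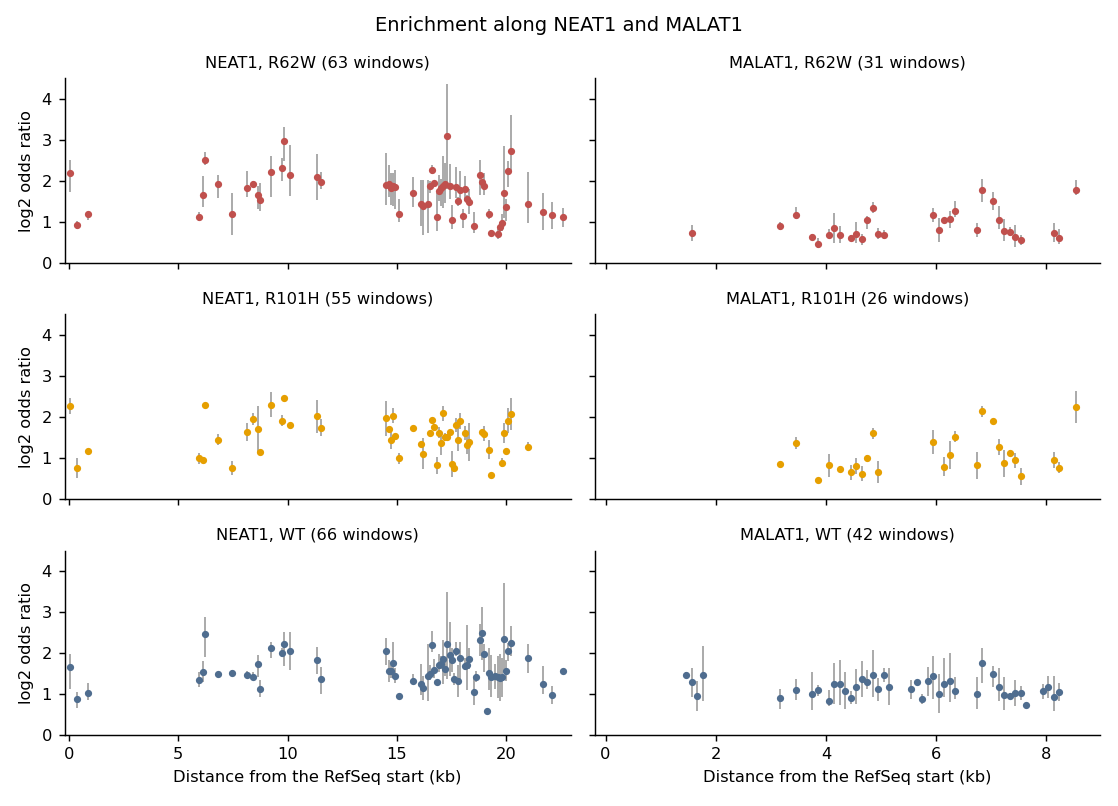
Log2 odds ratio of IP over input (vertical axis) of each listed window of NEAT1 (left) and MALAT1 (right) against the distance of its centre from the RefSeq start in kb, with R62W, R101H and WT from top to bottom. Points are means over the replicates that passed and lines run from the lowest to the highest replicate; NEAT1 has 63, 55 and 66 windows and MALAT1 has 31, 26 and 42, and MALAT1 has no R101H window near its start.

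XIST windows lay mainly in stretch 4 of its 32059 bases in RefSeq, with 17 there in R62W and 14 in R101H, against 5 in WT. Its medians of 0.75, 0.78 and 0.74 are over 32, 21 and 7 windows and so over unlike windows. In windows shared with WT, the median difference was 0.34 for R62W, with 7 of 7 higher, and 0.58 for R101H, with 6 of 6 higher, where 72.4% and 82.5% of all shared windows were higher. The window with the highest R62W and R101H means (chrX:73827885-73827984) had 1.76 in R62W (1.45 to 2.07) and 1.96 in R101H (1.78 to 2.14), against 1.27 in WT (1.03 to 1.66). Its pooled input counts were 942 and 637 against 940. Stretch 1 held 8 windows in R62W and 1 in R101H, against 2 in WT.

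HOXA11-AS had the highest value of any lncRNA gene in R62W. Its window chr7:27188700-27188798, near the 3′ end of the transcript, had 4.47, 5.35 and 5.77 in R62W and 3.64 and 4.78 in R101H and was not listed in WT. The value rests on 112 and 50 IP counts over an input count of 1 in both lists. The next window downstream (chr7:27188799-27188897) was listed in all 3, with means of 3.51 and 3.72 against 2.73 on 6, 4 and 6 input counts. A pair of FIRRE windows and the HOTAIR windows likewise rested on 0 to 18 input counts. The FIRRE means were 3.54 and 3.27 in R62W and 2.28 and 4.18 in R101H.

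The highest values of the whole set lay in duplicated loci in R62W and R101H and in ID3 in WT. In R62W the highest was a PKD1P6 window (chr16:15131329-15131413) at 4.48, 5.47 and 5.97, with 4.75 and 5.91 in R101H, against 3.09, 3.52 and 3.66 in WT. All 5 substitution values lay above the 3 WT values, where R62W did so in 24.1% and R101H in 48.4% of all shared windows. In R101H the highest was in PKD1P1:AC138969.4 (chr16:16327921-16328012), at 4.23 and 8.59, against 2.33, 2.79 and 3.62 in WT and beside 3.49, 4.33 and 4.37 in R62W. The R101H mean of 6.41 there was set by 1 of 2 replicates, on 6 input counts. In WT the highest was in ID3 (chr1:23558739-23558836), an inhibitor of bHLH transcription factors, at 4.58, 4.76 and 5.01 on 40 IP counts and an input count of 0, and it was in neither substitution list. Reads of PKD1, NPIPA, NBPF and HERC2 copies may fit more than 1 locus, so the position of their windows is uncertain.

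**Figure D3:**
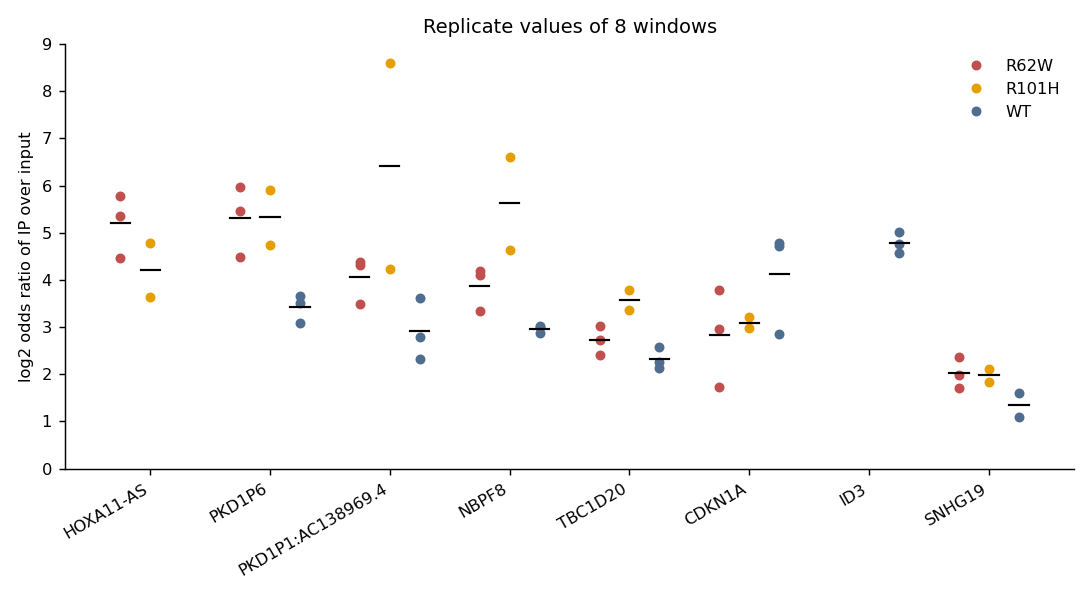
Log2 odds ratios of IP over input (vertical axis) in 8 windows, with 1 point for each replicate in which the window passed and a black bar at the mean, for R62W, R101H and WT from left to right within each window. PKD1P6 and NBPF8 have every substitution value above the WT values, and TBC1D20 has 2 R101H values above the WT values. HOXA11-AS has no WT value while ID3 has WT values alone. Over all shared windows, R62W lies wholly above WT in 24.1% and R101H in 48.4%.

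Windows shared between lists were compared with limma on the replicate values, fitted over all windows at identical coordinates in both lists. The spread of a replicate about its group mean had a median SD of 0.43 for R62W minus WT. For R62W minus WT, 0 of 479 lncRNA exon windows had a limma adjusted p under 0.05, against 0% of all 12263 windows. At an unadjusted p under 0.05, 86 of the 479 and 1252 of all 12263 were found. The median difference was 0.36, against 0.26 over all windows tested, and it was 0.15 without the PKD1 and NPIPA copies. Since all windows together lay above 0, differences are read against that shift. With windows that passed in every replicate, 0 of 201 were called by limma, against 0.0374% of all 2672, with 30.3% of the 201 and 26.9% of all at an unadjusted p under 0.05, and the median was 0.58 against 0.57. With a pooled input count of at least 10, 0 of 340 were called by limma, against 0.0131% of all 7656, with 29.1% of the 340 and 17.6% of all at an unadjusted p under 0.05.

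Medians of the R62W minus WT differences varied with the kind of gene, which was not tested. The 92 shared windows of NEAT1 and MALAT1 had a median difference of -0.10, with 41 higher in R62W. Taken apart, the median was 0.07 over the 62 NEAT1 windows and -0.25 over the 30 MALAT1 windows. The 88 windows of other lncRNA genes had 0.21 with 65 higher, where 72.4% of all shared windows were higher. In the 141 windows of the PKD1 and NPIPA copies the median was 1.03 and 138 were higher. Replicate values of R62W lay wholly above those of WT in 80 of these 141, where 24.1% of all shared windows did so. Of the 92 NEAT1 and MALAT1 windows, 6 lay wholly above WT and 10 wholly below, where 4.24% of all shared windows lay below. NEAT1 had 6 above and 4 below, and MALAT1 had 0 above and 6 below. The copies had a median G and C content of 65.5% in R62W, 65.4% in R101H and 65.8% in WT, where the whole set had 50.0%, 49.5% and 51.7%, and the part of base composition or read placement in their values was not tested.

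For R101H minus WT the result depended on which windows entered. Over all shared windows 0 of 448 were called by limma, against 0% of all 11082, with 135 of the 448 and 2365 of all at an unadjusted p under 0.05. The median difference was 0.56, against 0.60 over all windows, and 0.26 without the copies. Once centred on all windows it was -0.046. Among windows that passed in every replicate of both groups, 48 of 203 were called, against 18.2% of all 2730. Of the 48, 47 were higher in R101H (17.8% of all windows were) and 1 was lower (0.403% were). The copies supplied 45 of the 48, from 80 windows. The 3 others were in NBPF8, TBC1D20 and RP11-160E2.6, from 123 windows. With a pooled input count of at least 10, 57 of 296 were called, all higher in R101H, against 9.42% of all 6945. The copies supplied 52 of these 57, from 95 windows, and the other 5 came from 201 windows. The RP11-160E2.6 window was below that input count. When the differences were centred on the median of all windows, 0 of the 203 and 0 of all 2730 were called by limma, with 29.6% of the 203 and 16.3% of all at an unadjusted p under 0.05.

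Of the 45 copies called among windows that passed in every replicate, 20 were of PKD1P1:AC138969.4, with a median difference of 1.64. Another 11 were of PKD1P3:NPIPA1 with 1.71, 4 of NPIPA9 with 1.49, and 3 each of PKD1P4 and PKD1P6 with 1.90 and 1.36. In the window of NBPF8 (chr1:120465317-120465371) the R101H values were 4.64 and 6.61, against 2.89 to 3.02 in WT, on 1 input count in R101H and 3 in WT. R101H exceeded WT there by 2.66 (SE 0.59, limma adjusted p 0.0456). TBC1D20, which encodes a GTPase-activating protein for Rab1, had a window at chr20:437048-437145 with 3.37 and 3.78 in R101H, against 2.12, 2.26 and 2.59 in WT. That difference was 1.25 (SE 0.33, limma adjusted p 0.0499).

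NEAT1 and MALAT1 did not share the upward shift of all windows. Over 80 shared windows their median R101H minus WT difference was -0.10, where all windows had 0.60, and 28 of the 80 were higher in R101H, as were 82.5% of all windows. R101H replicate values lay wholly below WT in 15 of the 80, against 3.84% of all shared windows, and wholly above in 5, against 48.4%. None of the 80 had an unadjusted limma p under 0.05. Other lncRNA genes had 0.43 over 74 windows, with 63 higher. The copies had 1.41 over 141 windows, and R101H values lay wholly above WT in 117 of them. The NEAT1 median of -0.11 and the MALAT1 median of -0.10 became -0.71 and -0.70 after centring.

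**Figure D4:**
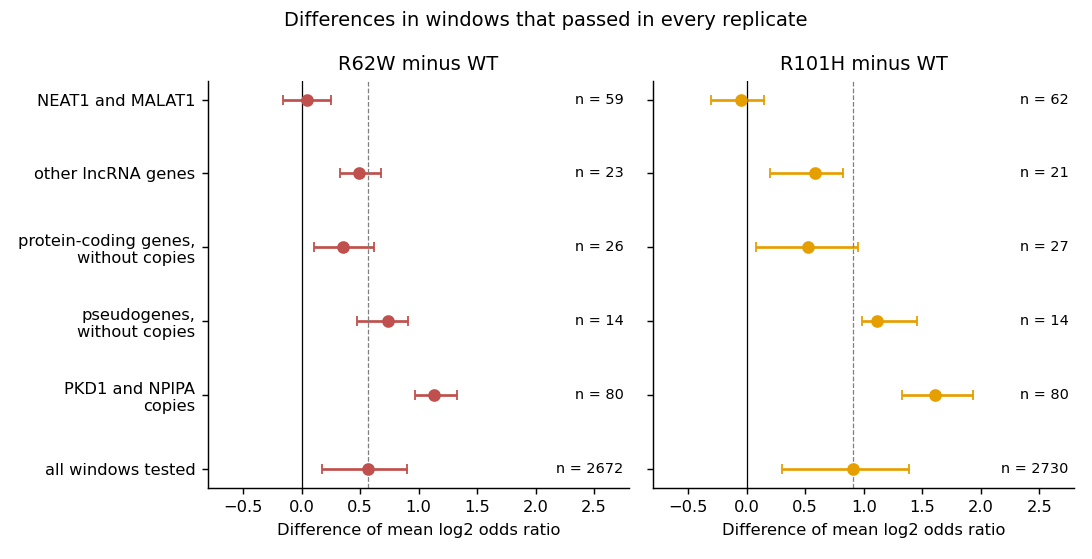
Median difference of mean log2 odds ratio (horizontal axis, points) with the lower to the upper quartile over windows (bars), for R62W minus WT and R101H minus WT, in windows that passed in every replicate; n is the number of windows and the dashed line marks the median of all windows tested. NEAT1 and MALAT1 lie at 0.05 and -0.05, the PKD1 and NPIPA copies at 1.13 and 1.61, and all windows at 0.57 and 0.91.

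The window called lower in R101H lies in RP11-160E2.6, a lncRNA gene on the minus strand of chromosome 17 whose annotation runs through SNORD3D, a gene of the U3 snoRNA that guides early processing of 18S rRNA. At chr17:19112083-19112166 the values were 1.60 and 1.89 in R101H, against 3.10, 3.70 and 4.34 in WT, and R62W had 3.22, 3.49 and 4.18. Both R101H values lay below all others, where R101H lay wholly below WT in 3.84% of all shared windows and below R62W in 3.59%. The R101H minus WT difference was -1.97 (SE 0.44, limma adjusted p 0.0456), and R101H minus R62W was -1.89 (SE 0.40, adjusted p 0.94). The 5 windows of the gene lie side by side and end 1 base short of SNORD3D in RefSeq (chr17:19112420-19112636), on its 3′ side. R101H listed 3 of the 5, with 193 summed IP counts, against all 5 in R62W, with 991, and all 5 in WT, with 901. Summed input counts were 30 in R101H, 76 in R62W and 72 in WT. These sums cover unlike numbers of windows and passing replicates, so they are not a measure of a difference.

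In the window next to SNORD3D (chr17:19112335-19112418) the R101H values were 2.03 and 2.26, against 2.73, 3.20 and 3.58 in WT, with 3.37, 3.64 and 3.79 in R62W. Its pooled input counts were 16 in R101H, 23 in R62W and 26 in WT, with IP counts of 87 in R101H, 322 in R62W and 295 in WT. In the remaining window that R101H listed (chr17:19112167-19112250) the ranges overlapped. R101H had 2.07 and 3.65 there, against 3.27, 3.47 and 3.61 in WT, with 2.63, 3.46 and 4.44 in R62W. Inside SNORD3D itself a window annotated as small RNA exon, which is no member, had means of 1.35 in R62W and 1.61 in R101H, against 1.22 in WT. Its R101H mean was the highest of the 3 lists. U3 genes are near-identical copies, so reads of SNORD3D and its flanks may come from other copies.

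**Figure D5:**
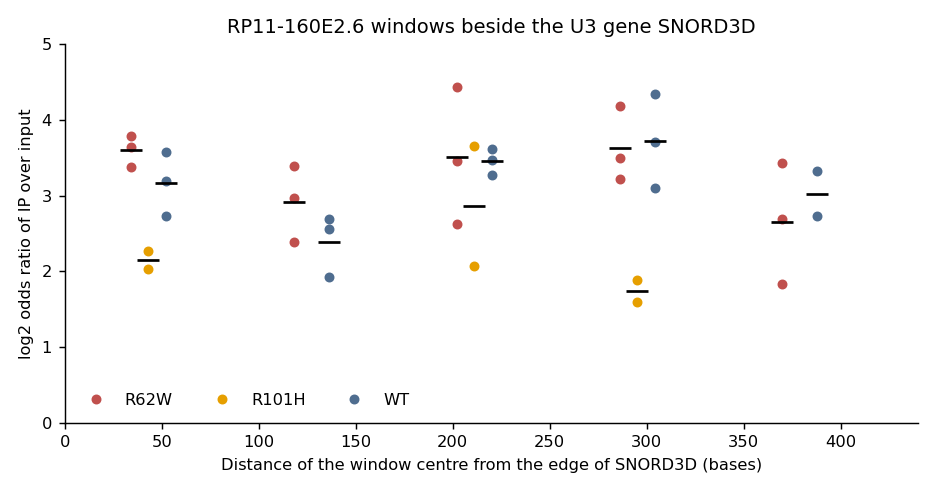
Log2 odds ratio of IP over input (vertical axis) in the 5 RP11-160E2.6 windows against the distance of the window centre from the edge of SNORD3D in bases, with points for replicates, black bars for means, and R62W, R101H and WT set slightly apart sideways. R101H has values in 3 of the 5 windows, and in 2 of these both its values lie below every R62W and WT value.

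A second window with lower values in R101H lay in SNHG16 (chr17:76561659-76561751) and overlaps the snoRNA gene SNORD1A. It had 1.15 and 1.48 in R101H, against 2.49, 2.95 and 3.16 in R62W, with 2.33 and 2.97 in the WT replicates that passed. The R101H minus R62W difference of -1.55 (SE 0.36) had a limma adjusted p of 0.94 among windows that passed in every R62W and R101H replicate. Over all 15 shared SNHG16 windows, this one included, the median R101H minus R62W difference was 0.42, with 12 higher in R101H. Of 15 shared windows overlapping or within 100 bases of a snoRNA gene, 10 had a higher mean in R101H than in R62W. Their median difference was 0.20. Of the 5 that overlap a snoRNA gene, 2 had a higher mean in R101H. Among all windows shared by R101H and R62W, 71.8% were higher in R101H, with a median difference of 0.21.

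Between the substitutions, 0 of 1549 shared windows were called by limma for R101H minus R62W, against 0% of all 59874, with 39 of the 1549 and 1076 of all at an unadjusted p under 0.05. The median difference was 0.15, against 0.21 over all windows. NEAT1 windows were lower in R101H in 44 of 54, where 71.8% of all windows were higher, with a median of -0.20, and R101H lay wholly below R62W in 10 of them and above in 0, where the figures for all shared windows were 3.59% and 17.9%. MALAT1 had a median of 0.12 over 26 windows, with 20 higher in R101H. HCG11, with 0.58 over 29 windows of which 25 were higher, lay above the median of all windows.

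At CDKN1A, which encodes the cell cycle inhibitor p21, a window of a non-coding isoform (chr6:36678869-36678939) had the lowest R62W minus WT difference of the windows that passed in every replicate. It had 1.74, 2.96 and 3.78 in R62W and 2.98 and 3.21 in R101H, against 2.85, 4.73 and 4.79 in WT. Ranges overlapped, and the R62W minus WT difference of -1.30 (SE 0.69) had a limma adjusted p of 0.26. IP counts were 75 and 45 against 185, on input counts of 6, 2 and 6.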

How the data were processed

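Reads were processed by the authors with fastp and STAR on GRCh38, per the submitters' processing notes; no source used here gives versions or the window caller. Per the file headers, the deposited tables hold whole-number IP and input counts per window, log2 odds ratios (lowest, mean and highest over replicates), p-values and q-values, the fraction of G and C bases, and another quantity, the number of replicates passed. From the values, log2 odds ratios and counts cover passing replicates only. In windows with equal numbers of passing replicates, input counts had a ratio of 1.00 for R62W over WT and 1.09 for R101H over WT. Where R101H passed in 2 replicates and WT in 3, R101H had 0.664 times the WT input. The labels name 3 inputs in all, so the lists may share inputs, and the limma fits took no account of that.

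Members, role lists and comparisons were chosen with earlier results of these data known. Replicate values were rebuilt from the lowest, mean and highest, without replicate numbers. They were compared with limma 3.58.1 (lmFit, eBayes, R 4.3.3, two-sided) over all windows at identical coordinates in both lists, with Benjamini-Hochberg adjustment at 0.05; a window absent from 1 list enters no test. The script was tested on simulated data. Deposited counts are pooled, so no count model could be fitted. Shares carry exact Clopper-Pearson 95% intervals. Named were the 10 genes with most windows and the 10 highest windows per list, up to 6 genes absent from WT or present only there, called windows, the 3 highest and 3 lowest differences per pair, and role-list genes, each as far as space allowed. RP11-160E2.6, TMEM147-AS1, RP5-984P4.6, the snoRNA distance of 100 bases and the counts without overlap were chosen after their values were seen. Alternatives covered the windows entered, centring, low counts, q, variance trend, list length and the copies. Sequences and positions come from RefSeq GRCh38.p14 tables. The repeat tables were not used here.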

Additional observations from a re-analysis of the deposited data

Results flagged for a closer look

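In 3 of the 439 lncRNA exon windows in all 3 lists, R62W and R101H passing replicates lay on opposite sides of WT without overlap. Over all windows in the 3 lists this held for 35 of 10627, or 0.329%, and the difference between these shares was not tested. In each of the 3 windows a WT replicate did not pass and has no value, so the lack of overlap covers passing replicates only. The THUMPD3-AS1 window (chr3:9390315-9390413) had means of 2.12 in R62W and 1.62 in R101H, against 1.73 in WT, so R101H minus R62W was -0.50. A window of the joint locus that includes SLC35E2A (chr1:1736794-1736892) had 1.53 in R62W and 2.51 in R101H, against 2.13 in WT, and R101H minus R62W was 0.98. In STAG3L5P:STAG3L5P-PVRIG2P-PILRB (chr7:100349888-100349977) the means were 1.75 and 2.42, against 2.01 in WT, and R101H minus R62W was 0.68. The opposite directions were not tested as an interaction. The direct limma comparison of R101H with R62W gave each an adjusted p of 1.00 with Benjamini-Hochberg adjustment, and each window rests on 22 to 49 pooled IP counts.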

How the results depend on the processing

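Calls by limma for R62W minus WT and R101H minus R62W stayed at 0 under every alternative run, with 10.9% to 30.3% and 1.55% to 4.14% of the tested lncRNA exon windows at an unadjusted p under 0.05, where all windows had 5.36% to 26.9% and 0.656% to 3.35%. For R101H minus WT, 48 windows were called with windows that passed in every replicate, 57 of 296 with a pooled input count of at least 10 (9.42% of all 6945), and 3 with windows that passed in every replicate but without the PKD1 and NPIPA copies, an alternative chosen after seeing the data. All 57 were higher in R101H, and the copies supplied 52 of them from 95 windows, against 5 from 201 other windows. The lower RP11-160E2.6 window had 8 input counts in R101H and 9 in WT and was not tested at that limit. Centring, a variance trend and a highest q of at most 0.05 gave 0, with 16.7%, 25.2% and 33.3% at an unadjusted p under 0.05, where all windows had 7.95%, 22.2% and 28.7%. Median differences ranged from 0.09 to 0.58 for R62W minus WT and from -0.06 to 0.22 for R101H minus R62W, and for R101H minus WT from -0.046 with centring to 0.86. The share of WT windows also in R62W was 98.9% by gene and 76.2% with q at most 0.05. For WT in R101H it was 97.5% by gene, 76.9% with that q and 94.0% with every replicate, and for R62W in R101H 94.3%, 74.8% and 90.5%. The share of the list was, in R62W, 3.28% with that q, 2.90% with every replicate, 3.70% with 1 window per gene, 3.60% in lists of equal length and 0.933% with lncRNA genes only. For R101H it was 2.48%, 3.49%, 3.06% and 0.842% with that q, 1 window per gene, equal length and lncRNA genes only. In WT it was 5.36% with that q, 6.14% with every replicate, 3.71% with NORAD and MIR34AHG kept and 1.33% with lncRNA genes only. WT had the highest share under these settings except with 1 window per gene, where it had the lowest, at 3.25%, and with equal length, where R62W had the highest. The cause was not tested. No paired analysis was possible because the replicate values carry no replicate number, and for the same reason no named replicate could be left out. Input counts under 10, behind 37.2% of the set in R62W, 45.5% in R101H and 29.4% in WT, limit single windows, and the lists carry no test of their lengths.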
